A study of Danio rerio with 8 samples.

Results

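Cytochrome P450 enzymes are heme proteins that add oxygen to small molecules. The cyp1 to cyp4 families act mainly on foreign compounds, fatty acids and eicosanoids, in the liver and the gut above all. The other families make or break down steroid hormones, bile acids, vitamin D, retinoic acid and cholesterol. Several of these genes are controlled by ligand-activated receptors: the aryl hydrocarbon receptor drives cyp1a, and the pregnane X receptor, encoded by nr1i2, drives cyp3a genes.

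The genes described here are the rows of the expression table whose symbol starts with cyp and a digit, without the cyp2k genes, cyp7a1, cyp27c1 and cyp51. This gave 57 of the 68 cyp genes in the table, among 20409 genes in all. There were 5 cyp1, 27 cyp2, 4 cyp3 and 3 cyp4 genes, and 18 of other families.

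RNA was sequenced from whole zebrafish larvae at 4 days post fertilization, untreated. Homozygous smh mutants (smh -/-), which carry a mutation of the dynein attachment factor gene ccdc103 and have paralysed motile cilia, were picked by their downward curled tail. The sibling controls pooled wild-type larvae (wt) with heterozygotes (+/-). Each of 4 clutches gave 1 mutant and 1 control library, each from 30 pooled larvae, so there were 4 mutant and 4 control libraries. A library is thus an average over 30 whole animals, and a change in 1 organ is seen diluted by the rest of the body.

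The values are read here as log2 CPM, that is, reads of a gene scaled to a shared library total and logged. Their distribution is nearly equal between libraries, and the depth is unknown. The transcript of ccdc103 itself was low in both groups, at 0.55 ± 0.31 log2 CPM in mutants and 0.68 ± 0.25 log2 CPM in sibling controls (SD, n = 4 each, exact two-sided permutation p = 0.486). It therefore gave no check of the genotype labels. A level of 0 log2 CPM or more in 4 of the 8 libraries was required for testing, and 20154 genes met it, 52 of the 57 P450 genes among them. The 5 that were not tested are cyp2p7, cyp2p8, cyp2p9, cyp2p10 and cyp46a1.4.

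Compared with the control of the same clutch, cyp3a65, cyp3c3, cyp2x9 and cyp1a were called lower in mutants, and no P450 gene was called higher. The mean falls were 1.54-fold, 1.55-fold, 1.29-fold and 1.28-fold. Compared across all libraries without regard to clutch, no P450 gene passed. The 4 calls came from a limma model with clutch as a block beside genotype, at a Benjamini-Hochberg adjusted p under 0.05 over all tested genes. They make 4 of 52 tested P450 genes called lower (7.69%), against 1.39% of all tested genes, and 0 were called higher, against 0.948% of all (2.34% in either direction). At an unadjusted p under 0.05 the blocked model had 14 lower and 2 higher, against 6.89% and 6.64% of all tested genes.

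In the main limma model, which holds genotype alone, 0 of the 52 passed, against 0.0744% of all tested genes (0.0546% higher and 0.0198% lower). At an unadjusted p under 0.05 there was 1 higher (cyp1c2) and 0 lower, against 1.94% and 1.48% of all. The clutch label pairs the libraries by parentage, and 32 of these 52 genes differed between clutches, as described further on. Without the 2 libraries of clutch 1, 0 of 52 passed in the blocked model, and without those of clutch 4, 2 were called lower. Without those of clutch 2, 4 were called lower and 1 higher, and without those of clutch 3, 3 were called lower. Of all 20154 tested genes, the fits without clutch 1, 2, 3 and 4 called 419, 235, 447 and 178 in either direction. With all 4 clutches the blocked model called 472. Each of these fits has 6 libraries and fewer degrees of freedom, and why their counts differ was not tested. Without clutch 1 the differences were -0.57 for cyp3a65, -0.64 for cyp3c3, -0.34 for cyp2x9 and -0.26 for cyp1a, against -0.62, -0.63, -0.37 and -0.36 with all 4 clutches. The calls also depend on the way gene variances are moderated, over all genes as well as here. A blocked model that used neither a mean-variance trend nor robust estimation called 0 of 52, and 50 of all 20154 tested genes. Enterocyte and exocrine pancreas markers were lower in mutants as well, with median log2 fold changes of -0.39 and -0.51, while hepatocyte markers had a median of 0.05. The part of these markers in the P450 result was not tested. In whole-larva RNA, fewer cells of a type and less RNA per cell cannot be told apart.

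Differences were small in every family. No tested P450 gene differed by 1 log2 unit or more, and 34 of 52 differed by less than 0.2 log2 units. The log2 fold change was below 0 in 38 of the 52, which is 73.1%, against 48.9% of all tested genes, and the median over the 52 was -0.08, against 0.00 over all tested genes. Over the 53 genes above the floor of the table (its lowest values) the median was also -0.08. Over all 57, with the 4 genes at the floor, it was -0.06. Of the 52, 16 were lower in mutants in 4 of 4 clutches (30.8%, against 10.9% of all tested genes), and 3 were higher in 4 of 4 (5.77%, against 11% of all). These counts were taken with earlier results of these data known, and the genes share libraries and tissues, so they are given as a description.

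**Figure D1:**
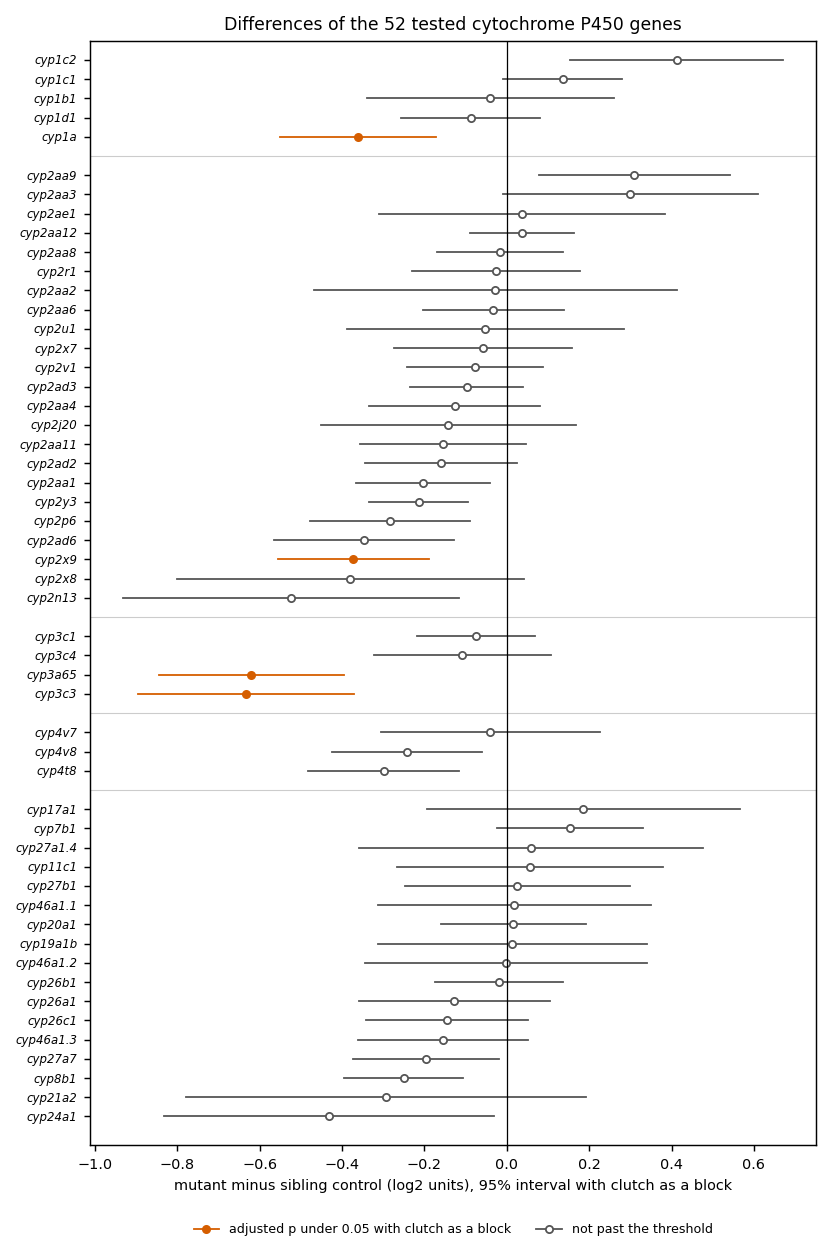
Difference between mutants and sibling controls for the 52 tested P450 genes, in log2 units on the x axis, grouped by family from cyp1 at the top to the other families at the bottom, with 95% intervals from the limma model with clutch as a block. Filled orange points are the 4 genes past the threshold, all below 0, from -0.36 for cyp1a to -0.63 for cyp3c3.

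The cyp3 family held 2 of the 4 calls. In zebrafish, cyp3a65 is transcribed in the larval intestine and liver, and its family metabolizes steroids and drugs. Mutants of clutches 1 to 4 had 5.65, 7.76, 7.80 and 6.32 log2 CPM of cyp3a65, against 6.42, 8.20, 8.12 and 7.29 log2 CPM in sibling controls. Each mutant lay below its own clutch mate, but the 2 groups overlapped widely, because clutches 2 and 3 were high in both genotypes. The means were 6.89 ± 1.07 in mutants and 7.51 ± 0.83 in controls (SD, n = 4 each). The difference was -0.62 log2 units, with an SE of 0.10 in the blocked model (limma adjusted p = 0.0134) and of 0.57 without the block (adjusted p = 1). The SE without the block carries the spread between clutches.

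The related subfamily cyp3c has 3 genes in the table, all on chromosome 3. Levels of cyp3c3 were 2.61, 4.62, 4.13 and 2.75 log2 CPM in mutants of clutches 1 to 4, against 3.24, 5.03, 4.47 and 3.91 log2 CPM in sibling controls. As with cyp3a65, each mutant was below its clutch mate and the groups overlapped. The difference was -0.63 ± 0.12 log2 units (SE, blocked limma adjusted p = 0.0167, and 1 without the block). The differences of cyp3c1 (-0.08) and cyp3c4 (-0.11) did not pass, with blocked 95% intervals of -0.22 to 0.07 and -0.32 to 0.11.

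The 3 cyp3c genes lie on the chromosome of ccdc103, with 138 to 140 tested genes between them and it in the RefSeq order. Mutants carry the mutant chromosome around ccdc103 on both copies and their siblings do not, so a difference carried by linked alleles and an effect of the mutation cannot be told apart for these genes. On this chromosome the blocked model called 28 of 1010 tested genes lower (2.77%), against 1.39% of all tested genes.

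In the cyp1 family, cyp1a fell and the others did not pass. cyp1a, the gene most used as a readout of aryl hydrocarbon receptor activity, had 3.91, 5.21, 4.12 and 5.70 log2 CPM in mutants of clutches 1 to 4, against 4.56, 5.61, 4.12 and 6.09 log2 CPM in sibling controls. It was lower in mutants of clutches 1, 2 and 4, while the 2 libraries of clutch 3 were equal to 0.00 log2 units. The difference of -0.36 ± 0.09 log2 units passed narrowly (SE, blocked limma adjusted p = 0.0484) and was lost without clutch 1, 2 or 4 (adjusted p = 0.131, 0.238 and 0.239). It was also lost with no filter on low values and with a filter on a mean of 5 CPM (adjusted p = 0.0507 and 0.0652).

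The paralog pair cyp1c1 and cyp1c2 lay on the other side of 0. For cyp1c2, mutants of clutches 1 to 4 had 3.32, 2.90, 3.00 and 3.16 log2 CPM, against 2.59, 2.96, 2.45 and 2.74 log2 CPM in sibling controls. Mutants were higher in clutches 1, 3 and 4 and slightly lower in clutch 2, and the clutches themselves differed little, with clutch means spanning 0.23 log2 units. Its difference of 0.41 ± 0.12 log2 units was the largest above 0 among the P450 genes and did not pass (SE, blocked limma adjusted p = 0.106, exact two-sided permutation p = 0.0571 unpaired). Without clutch 2 the blocked model called it higher (adjusted p = 0.0387). cyp1c1 differed by 0.14 log2 units and was higher in mutants in 4 of 4 clutches. cyp1b1 differed by -0.04 log2 units and cyp1d1, a member that mammals such as humans have lost as a working gene, by -0.09.

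Other genes of the aryl hydrocarbon receptor pathway did not pass. Of 14 measured members of a list of the pathway, cyp1 genes included, cyp1a was the 1 called with the block, and 0 passed when clutch was left out. At an unadjusted p under 0.05 the blocked limma model had 3 of the 14 and the other 1. The list median was 0.01. The receptor gene ahr2 differed by 0.09 log2 units and its partner arnt by 0.03. Over all tested genes, the blocked model called 2.34% in either direction. At an unadjusted p under 0.05 it had 6.64% higher and 6.89% lower, and the model without clutch 1.94% and 1.48%. Counts at an unadjusted p in the lists and families below take both directions together and are to be read beside these shares. In a list of 24 nuclear receptors of xenobiotic and sterol response, 0 passed in either model (limma, with 3 at an unadjusted p under 0.05 in the blocked one and 0 in the other). Its member nr1i2 averaged 4.38 ± 0.05 log2 CPM in mutants and 4.21 ± 0.09 log2 CPM in sibling controls (SD, n = 4 each). That is a difference of 0.18 in the direction opposite to cyp3a65 (blocked limma adjusted p = 0.299), and it is named here after its values were seen.

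Among the 27 cyp2 genes, cyp2x9 fell, and 19 of the 23 tested had a log2 fold change below 0. The cyp2x genes are a fish subfamily, and the 3 in the table lie on chromosome 25. Mutants of clutches 1 to 4 had 3.79, 4.49, 4.50 and 3.82 log2 CPM of cyp2x9, against 4.27, 4.59, 4.80 and 4.45 log2 CPM in sibling controls. The gap was widest in clutches 1 and 4, where the mutants lay below every control, and narrow in clutch 2. The difference was -0.37 ± 0.09 log2 units (SE, blocked limma adjusted p = 0.0288), and the call was lost without clutch 1, 3 or 4 (adjusted p = 0.0881, 0.0543 and 0.245).

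Its neighbour cyp2x8 had -0.28, 0.46, 1.79 and 0.42 log2 CPM in mutants, against -0.05, 0.81, 2.26 and 0.88 log2 CPM in sibling controls. All 4 mutants were below their clutch mates, by differences of -0.23 to -0.47, in a gene whose clutch means spanned 2.19 log2 units. The difference of -0.38 ± 0.20 log2 units did not pass (SE, blocked limma adjusted p = 0.427). The third gene, cyp2x7, differed by -0.06 log2 units.

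On chromosome 20 lie 11 cyp2 genes (cyp2ad, cyp2n13, cyp2p, cyp2v1 and cyp2j20), a cluster that shares its position with the human CYP2J2 gene of fatty acid epoxidation. The 7 tested ones had log2 fold changes from -0.52 to -0.08. The lowest was that of cyp2n13, with 3.56, 5.35, 5.14 and 3.82 log2 CPM in mutants of clutches 1 to 4 and 4.25, 5.49, 5.34 and 4.89 log2 CPM in sibling controls. Its differences by clutch were -0.68, -0.14, -0.20 and -1.07, so that clutches 1 and 4 carried most of the mean. It did not pass (-0.52 ± 0.17 log2 units, SE, blocked limma adjusted p = 0.251). cyp2ad6 and cyp2p6 differed by -0.35 and -0.28, and cyp2ad2, cyp2j20, cyp2ad3 and cyp2v1 by -0.16, -0.14, -0.10 and -0.08 log2 units. Extents of cyp2v1, cyp2ad2, cyp2ad3 and cyp2p6 overlap in the RefSeq annotation, so the division of reads among them is uncertain. The same holds for cyp2j20 and cyp2p10.

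Within the same cluster, cyp2p7, cyp2p8, cyp2p9 and cyp2p10 lay at the floor of the table in all 8 libraries, at -4.96 log2 CPM in mutants of clutches 2 and 4 and -5.02 log2 CPM in the other 6 libraries. They make 4 of the 8 genes of the whole table that are at the floor in every library. Their neighbour cyp2p6 was not at the floor, with 3.62 ± 0.29 log2 CPM in mutants and 3.91 ± 0.09 log2 CPM in sibling controls (SD, n = 4 each). In the authors' deposited table of their comparison, the mean levels of cyp2p7 to cyp2p10 are given as -0.89, 0.36, -0.77 and -0.32 on the log2 scale. These lie 4.12, 5.37, 4.23 and 4.68 log2 units above the means of the 8 libraries, and the gap of cyp2p8 is the largest of any gene. For all genes the median gap was 0.0868 log2 units, and 213 of 20409 genes had a gap over 1, with cyp3c3 and cyp46a1.4 as the other P450 genes among them. How the authors' mean was formed is not given in the sources used here. No fold change is read for single genes at the floor. Theirs enter the median over all 57 genes, and reflect only the small difference of the floor between libraries. cyp46a1.4, the other untested gene, was low but above the floor, at 0.32, -0.11, -0.37 and -1.26 log2 CPM in mutants of clutches 1 to 4 and 1.08, -0.17, -0.96 and -1.38 log2 CPM in sibling controls, with no clear order of the genotypes.

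The cyp2aa genes, a subfamily of fish, lie with cyp2ae1 on chromosome 23. All 10 were tested, with log2 fold changes from -0.20 for cyp2aa1 to 0.31 for cyp2aa9 and a median of -0.02, and 6 of 10 lay below 0. Levels of cyp2aa9 were 4.16, 2.95, 1.46 and 3.29 log2 CPM in mutants of clutches 1 to 4, against 3.66, 2.90, 1.13 and 2.92 log2 CPM in sibling controls. Mutants were slightly higher in each clutch, and the step between clutches was far larger. The difference did not pass (0.31 ± 0.11 log2 units, SE, blocked limma adjusted p = 0.197). How alike the sequences of this subfamily are was not examined, so the division of reads among its genes is uncertain here too. Extents of cyp2aa4, cyp2aa6, cyp2aa11 and cyp2aa12 also overlap that of the gene tut4 in the RefSeq annotation. On chromosome 15, cyp2y3 was lower in mutants in 4 of 4 clutches, with a difference of -0.21 ± 0.06 log2 units, and missed the threshold (SE, blocked limma adjusted p = 0.0597). cyp2u1, a fatty acid hydroxylase of the brain in mammals, differed by -0.05 log2 units.

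**Figure D2:**
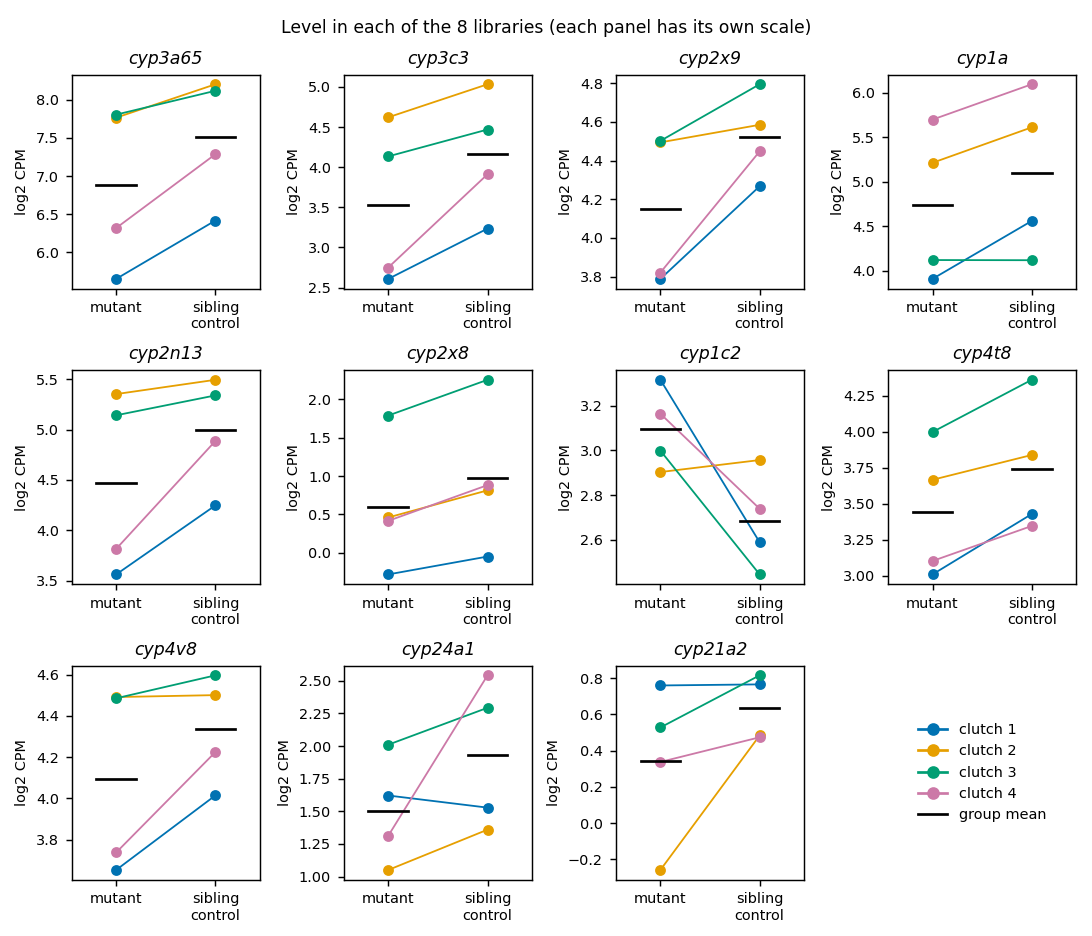
Level (log2 CPM, y axis) in mutants (left) and sibling controls (right) for the 4 called P450 genes and the 2 tested genes with the largest absolute difference in each family. Points are libraries, coloured lines join the libraries of a clutch and black bars are group means. All lines of cyp3a65, cyp3c3 and cyp2x9 slope the same way. So do those of cyp2n13, cyp2x8, cyp4t8, cyp4v8 and cyp21a2, which did not pass, with clutch 2 of cyp4v8 and clutch 1 of cyp21a2 nearly level. Clutch means span 1.95 log2 units in cyp3a65, 1.91 in cyp3c3 and 0.62 in cyp2x9.

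The 3 cyp4 genes, of a family that oxidizes the ends of fatty acid chains, all had log2 fold changes below 0 and none passed (limma, with 2 at an unadjusted p under 0.05 in the blocked model and 0 in the other). cyp4t8 had 3.01, 3.67, 4.00 and 3.10 log2 CPM in mutants of clutches 1 to 4, against 3.43, 3.84, 4.36 and 3.35 log2 CPM in sibling controls. Its 4 differences lay between -0.42 and -0.17, a narrow range, with a mean of -0.30 ± 0.09 log2 units (SE, blocked limma adjusted p = 0.0954).

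For cyp4v8, an ortholog of the human CYP4V2 gene of an inherited retinal dystrophy, mutants had 3.65, 4.49, 4.49 and 3.74 log2 CPM, against 4.01, 4.50, 4.60 and 4.22 log2 CPM in sibling controls. The libraries of clutch 2 were nearly equal, and the mean difference was -0.24 log2 units (blocked limma adjusted p = 0.2). cyp4v7, from the same subfamily, differed by -0.04 log2 units.

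In the 18 genes of other families, 17 were tested, 9 lay below 0 and 8 above, the median was 0.00, and none passed (limma, with 3 at an unadjusted p under 0.05 in the blocked model and 0 in the other). Bile acid and sterol enzymes differed in both directions. The sterol hydroxylase gene cyp8b1, which sets the ratio of bile acid types, differed by -0.25 ± 0.07 log2 units and was lower in mutants in 4 of 4 clutches (SE, blocked limma adjusted p = 0.0695). The extent of cyp8b1 overlaps that of cyp8b1.2 in the RefSeq annotation, so the division of reads between them is uncertain. cyp27a7, of the side-chain oxidizing family, differed by -0.20 log2 units, also with mutants lower in 4 of 4 clutches.

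cyp7b1, an oxysterol hydroxylase of the alternative bile acid route, was the 1 tested P450 gene whose mutants all lay above the controls, which held for 1.87% of all tested genes. The 4 mutants, by clutch, were at 3.72, 3.75, 3.73 and 3.71 log2 CPM, against 3.66, 3.53, 3.58 and 3.53 log2 CPM in the sibling controls. The gap of 0.15 ± 0.08 log2 units was small and did not pass (SE, blocked limma adjusted p = 0.45). Its exact two-sided permutation p of 0.0286 is the smallest that 4 against 4 libraries allow. That value follows from the separation by which the gene was picked out, so it is no further evidence, and it leaves clutch out. In the opposite direction, cyp2aa11 was the 1 whose mutants all lay below the controls (1.05% of all tested genes), at -0.16 log2 units. The 3 tested cyp46a1 genes, which hydroxylate cholesterol and are known in mammals for their role in the brain, differed by 0.02, 0.00 and -0.15 log2 units for cyp46a1.1, cyp46a1.2 and cyp46a1.3.

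Vitamin D enzymes were measured at each step. cyp24a1, which inactivates vitamin D, had 1.62, 1.05, 2.01 and 1.31 log2 CPM in mutants of clutches 1 to 4, against 1.53, 1.36, 2.29 and 2.54 log2 CPM in sibling controls. The control of clutch 4 was the highest library, and most of the mean difference of -0.43 log2 units came from that clutch (blocked limma adjusted p = 0.321). The activating enzyme gene cyp27b1 differed by 0.03 and the first-step gene cyp2r1 by -0.03 log2 units.

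Among the genes of steroid synthesis, none passed. For cyp21a2, the steroid hydroxylase of cortisol synthesis, mutants had 0.76, -0.26, 0.53 and 0.34 log2 CPM, against 0.77, 0.48, 0.82 and 0.47 log2 CPM in sibling controls. The mutant of clutch 2 stood lowest, and the difference of -0.29 ± 0.23 log2 units was close to its error (SE, blocked limma adjusted p = 0.632). cyp11c1, the last step of cortisol synthesis in zebrafish, differed by 0.06, cyp17a1 by 0.19 and the brain aromatase gene cyp19a1b by 0.01 log2 units. In a list of steroid synthesis genes outside the P450 group, 14 of 20 were measured, 0 passed in either model (limma, with 5 at an unadjusted p under 0.05 in the blocked one and 3 in the other), and the median was -0.15. Of the 14, 7 were lower in mutants in 4 of 4 clutches, against 10.9% of all tested genes. Their summed level was 248 to 266 CPM in mutants and 274 to 284 CPM in sibling controls, which was not tested. Of the 5 interrenal markers listed, 2 were measured, and 0 of them passed in either model (limma, with 0 of 2 below an unadjusted p of 0.05 as well). Their median was 0.02.

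The retinoic acid degrading genes cyp26a1, cyp26b1 and cyp26c1 differed by -0.13, -0.02 and -0.15 log2 units. A list of 19 measured genes of retinoic acid synthesis and response had a median of -0.04, with 0 called in either model (limma, with 3 at an unadjusted p under 0.05 in the blocked one and 1 in the other). The orphan gene cyp20a1 differed by 0.02 log2 units and cyp27a1.4, of the side-chain oxidizing family, by 0.06. In the authors' deposited table, 0 of the 57 P450 genes had an adjusted p under 0.05, against 0.118% of all genes, and 0 had an unadjusted p under 0.05, the lowest being 0.0692 for cyp1c2.

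By an F test of clutch in the blocked limma model, 32 of 52 tested P450 genes differed between clutches at an adjusted p under 0.05 (61.5%), against 38.6% of all tested genes. All 4 cyp3 and all 3 cyp4 genes were among them, with 15 of 23 cyp2, 3 of 5 cyp1 and 7 of 17 other genes. Of the sum of squares over the 8 libraries, clutch took a median of 81.9% and genotype 5.18% in the 52 genes, and 70.7% and 5.75% over all tested genes. Clutch has 3 degrees of freedom in this split and genotype 1.

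The clutch profiles fell into several shapes. In 11 of 52 genes (21.2%, against 4.76% of all tested genes) every library of clutches 2 and 3 lay above every library of clutches 1 and 4. These were cyp3a65, cyp3c3, cyp3c4, cyp2x9, cyp2n13, cyp2ad2, cyp2aa1, cyp4t8, cyp4v8, cyp8b1 and cyp27a1.4. Of the 11, 8 were lower in mutants in 4 of 4 clutches (72.7%), against 30.8% of the 52 and 10.9% of all tested genes. The share among the 960 tested genes with this clutch shape was not computed. The shares given thus cannot show whether this overlap is particular to P450 genes. The opposite split, with clutches 1 and 4 above 2 and 3, held for cyp2aa6 and cyp2aa8 (6.07% of all). cyp1a, cyp1b1 and cyp11c1 had clutches 2 and 4 above 1 and 3, as 5.44% of all tested genes did, while cyp3c1, cyp2x7, cyp20a1 and cyp21a2 had them the other way round, as 5.8% did. Clutches 3 and 4 lay above 1 and 2 in cyp2ae1 and cyp4v7 (1.04% of all), and 0 P450 genes had the reverse (1.89% of all). Clutch 1 had the highest mean and clutch 3 the lowest in 5 of the 9 cyp2aa genes, cyp2aa2, cyp2aa3, cyp2aa6, cyp2aa8 and cyp2aa9, and in 9 of all 52 tested P450 genes (17.3%, against 13.2% of all tested genes). The other 4 cyp2aa genes had other orders, and cyp2aa1 had the reverse, with clutch 3 highest and clutch 1 lowest. For cyp2aa8, the mutants by clutch were at 6.07, 5.57, 4.63 and 5.62 log2 CPM, against 6.33, 5.36, 4.65 and 5.62 log2 CPM in the sibling controls, so that the genotypes tracked each other within 0.26 log2 units in every clutch. The shapes were picked out after the values were seen.

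**Figure D3:**
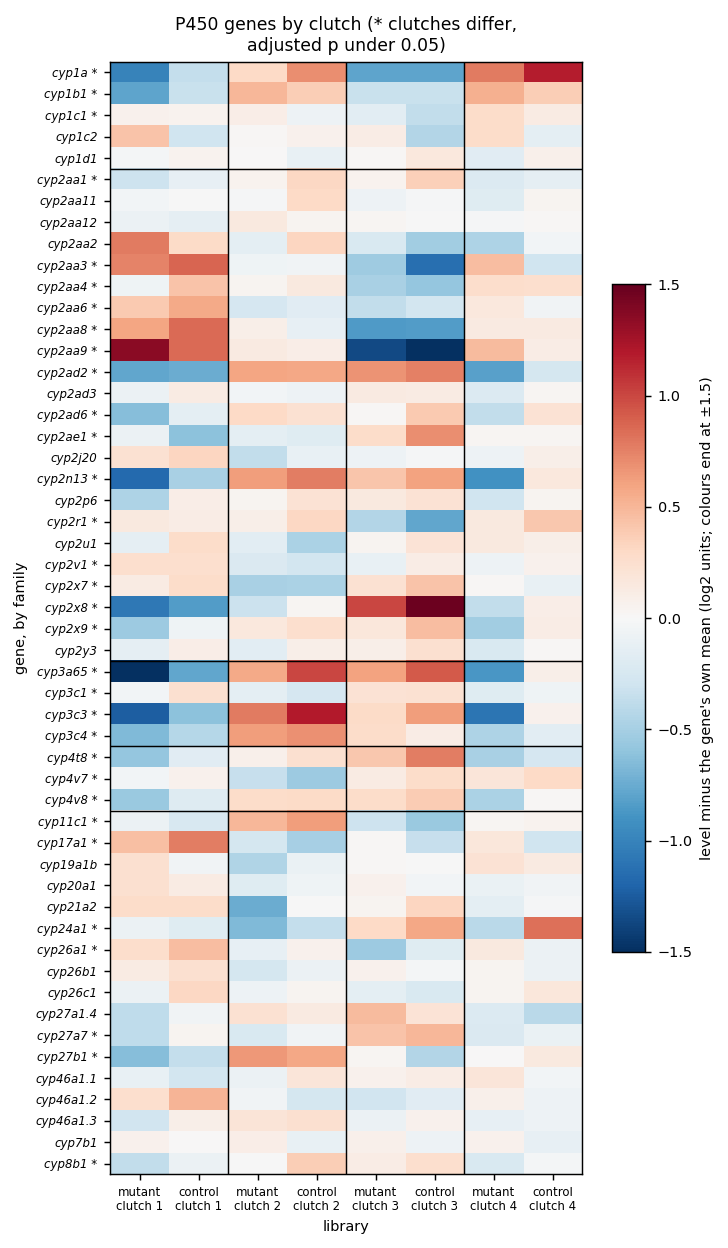
Level of each tested P450 gene minus its own mean (log2 units, colour from blue below to red above) in the 8 libraries, with mutant and control side by side in each clutch and genes ordered by family. Asterisks mark the 32 genes that differed between clutches. cyp3a65 and cyp3c3 run blue, red and red over clutches 1 to 3. In clutch 4 their mutant is blue and their control lies just above the gene's own mean. cyp2aa8 and cyp2aa9 run red to blue between clutches 1 and 3.

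Markers of the gut and the exocrine pancreas were lower in mutants and high in clutches 2 and 3, as cyp3a65, cyp3c3 and cyp2x9 were. cyp1a did not share this order of clutches, with clutch means of 4.24, 5.41, 4.12 and 5.90 log2 CPM. Of 13 enterocyte markers, the blocked model called 8 lower and 0 higher, against 1.39% and 0.948% of all tested genes, with a median of -0.39. The model that left clutch out called 0 (limma, with 2 at an unadjusted p under 0.05). fabp2, the intestinal fatty acid binding protein gene, fell by 0.39 ± 0.06 log2 units (SE, blocked limma adjusted p = 0.00189). The median differences of the list in clutches 1 to 4 were -0.49, -0.30, -0.19 and -0.58. Those of cyp3a65 were -0.76, -0.44, -0.31 and -0.97, in the same order of clutches, as were those of cyp3c3 (-0.63, -0.41, -0.33 and -1.16). Those of cyp2x9 (-0.48, -0.09, -0.29 and -0.63) and of cyp1a (-0.65, -0.40, 0.00 and -0.40) had other orders.

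The summed level of the enterocyte markers also followed clutch. It was 1258, 1778, 1900 and 1198 CPM in mutants of clutches 1 to 4, against 1566, 2065, 2165 and 1624 CPM in sibling controls, with clutches 2 and 3 high in both genotypes. Exocrine pancreas markers were also high in clutches 2 and 3. The blocked model called 12 of these 13 lower, against 1.39% of all tested genes. The other model called 0 (limma, with 0 at an unadjusted p under 0.05). Their median was -0.51, with sums of 2168 to 5074 CPM in mutants and 3321 to 6411 CPM in controls. No marker of either list was at the floor of the table.

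No hepatocyte marker was called lower. Of 13, the ceruloplasmin gene cp was the 1 called, and it was higher (blocked limma adjusted p = 0.0175, with 4 of the 13 at an unadjusted p under 0.05 in either direction). The median was 0.05, and the sums were 8070 to 9123 CPM in mutants and 7460 to 8723 CPM in sibling controls. Pronephros markers had a median of 0.19, with 3 of 15 higher with the block and 1 (hnf1bb) without it. Of 8 erythroid markers, 4 were called higher in the blocked model and 0 in the other (limma, with 2 at an unadjusted p under 0.05), with a median of 0.28. Beside the hepatocyte, pronephros and erythroid counts, 0.948% of all tested genes were called higher with the block and 0.0546% without it. Radial astroglia and neuron markers had medians of 0.05 and -0.02 with 0 called in either model (limma, with 1 of 7 and 0 of 8 at an unadjusted p under 0.05 in the blocked one and 0 in the other).

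**Figure D4:**
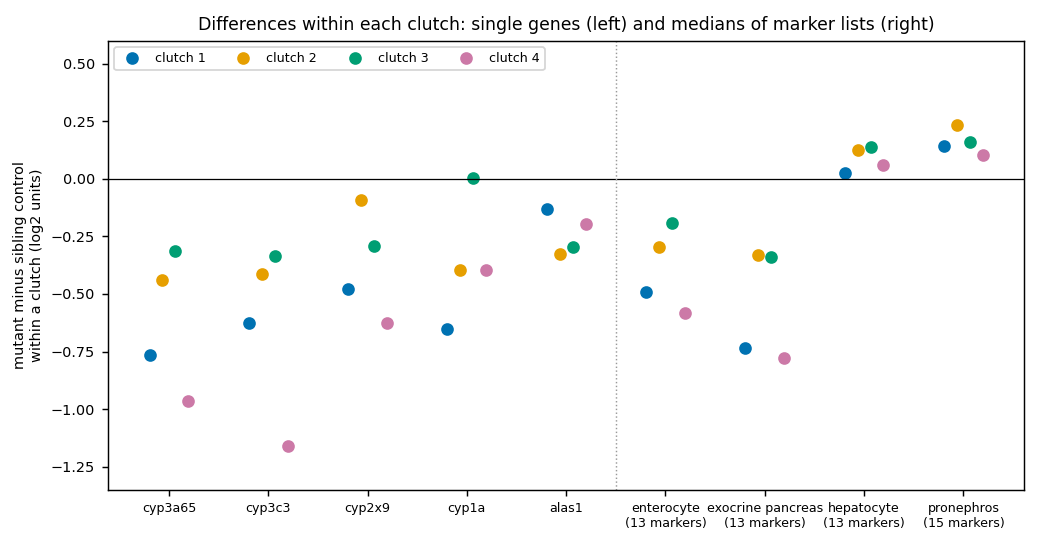
Mutant minus sibling control within each clutch (log2 units, y axis) for cyp3a65, cyp3c3, cyp2x9, cyp1a and alas1, and the median over the markers of 4 tissues. In cyp3a65, cyp3c3, cyp2x9 and the enterocyte and exocrine pancreas markers the points of clutches 1 and 4 lie lowest, while hepatocyte and pronephros medians lie above 0 in each clutch.

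Genes that supply P450 enzymes with heme and electrons were listed as well. Of 15 measured genes of heme synthesis and breakdown, 1 fell in the blocked model and 0 passed in the other (limma, with 6 and 1 at an unadjusted p under 0.05), with a median of 0.01. Of all tested genes, 1.39% were called lower with the block. The listed gene that fell is alas1, the rate-limiting enzyme of heme synthesis outside red cells. Its mutants of clutches 1 to 4 had 6.89, 7.90, 7.78 and 7.40 log2 CPM, against 7.02, 8.22, 8.08 and 7.60 log2 CPM in sibling controls. Each mutant was below its clutch mate, and clutches 2 and 3 were high in both genotypes, as for cyp3a65. The difference was -0.24 ± 0.06 log2 units (SE, blocked limma adjusted p = 0.036), and the call was lost without clutch 2, 3 or 4 (adjusted p = 0.226, 0.119 and 0.157) and in the blocked model without trend and robust estimation (adjusted p = 0.271).

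In a list of 13 measured electron donors and partners, 0 passed in either model (limma, with 5 at an unadjusted p under 0.05 in the blocked one and 0 in the other), with a median of -0.02. The 2 copies of the P450 reductase gene lay on opposite sides of 0. porb differed by -0.21 log2 units (blocked limma adjusted p = 0.161) and pora by 0.17 (adjusted p = 0.256). For 16 measured genes of eicosanoid and epoxide metabolism the median was -0.11, with 0 called in either model (limma, with 4 at an unadjusted p under 0.05 in the blocked one and 0 in the other). Among them, tbxas1 and ptgis are P450 enzymes by structure that the cyp symbols do not cover, and they differed by -0.16 and -0.10 log2 units.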

How the data were processed

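RNA of 8 libraries was compared, 4 of smh mutants and 4 of sibling controls, 1 pair from each of 4 clutches. Per the submitters' processing notes, GRCz11, HISAT2 2.0.4, Bowtie2, RSEM and limma were used, in no stated role or order, and reads were filtered with SOAPnuke 1.5.2, per the labels' protocols. The per-library values deposited by the authors are read as log2 CPM, since their antilogs total 997999 to 998006 in each library. Quantiles are nearly equal between libraries, which alone makes totals equal, so the unit is an inference. Depth, and the precision it gives, is unknown. From the table of the authors' own comparison, the deposited log2 mean and p-value columns were used and the score columns were not.

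Differences were tested with limma 3.58.1 in R 4.3.3, with empirical Bayes moderation, a mean-variance trend, robust estimation and no pseudocount. The main model held genotype alone, and a model that adds clutch as a block stands beside it. The labels give the number as the clutch, so it pairs the libraries. Deviations from the group means correlated by 0.30 to 0.72 across genes between clutch mates, and each library correlated best with its mate in 4 of 4 clutches. For single genes all arrangements of the 8 libraries were enumerated in an exact two-sided permutation. The limma procedure was also run on simulated data with independent noise, under the trend and robust settings only. That run does not bear on how the calls depend on moderation.

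The P450 genes and lists were chosen with earlier results of these data known. Values per library are given for genes called in either model and for the 2 tested genes with the largest absolute difference in each family. Called genes of pathway lists were added. cyp2aa8, cyp2aa9, cyp7b1, nr1i2, fabp2 and the further genes given by a difference alone were named after their values were seen. A pair of rows that RefSeq names cyp27a3 and cyp27a2 carry clone names in the files and fell outside the rule. RefSeq (GRCz12tu) gave chromosomes and neighbours by gene ID, for 57 of 57 P450 genes. Overlaps of extents are also from it, while the processing notes name GRCz11, so overlaps in the annotation used for counting may differ. In it cyp19a1b, cyp1d1, cyp20a1, cyp27b1, cyp2r1, cyp2u1 and cyp4v7 also overlap other genes. Alternatives were other filters and scalings, plain moderation, array weights, and fits that left out the chromosome of ccdc103, 1 library or 1 clutch.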

Additional observations from a re-analysis of the deposited data

Results flagged for a closer look

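Among 104 sets of 4 libraries (52 tested P450 genes in mutants and in sibling controls), 4 had 1 library far from the other 3 by Dixon's test on the gap to the nearest other library. Chance gives such a gap in about 1 in 20 sets, so this is no more than chance gives. The mutant of clutch 3 was low in cyp2r1, at 3.65 log2 CPM. The control of clutch 1 was high in cyp17a1, at 2.08 log2 CPM, and in cyp20a1, at 3.94 log2 CPM. The control of clutch 2 was high in cyp2aa11, at 3.55 log2 CPM.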

How the results depend on the processing

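Without the replicate block, 0 P450 genes were called lower and 0 higher under each alternative run, including the exclusion of each library and each clutch. With clutch as a replicate block 4 were called lower, and 4 with median centring and 4 with quantile normalization again. There were 3 with no filter, 3 with a filter on a mean of 5 CPM and 5 with array weights. Without the chromosome of ccdc103 there were 2, and without trend and robust estimation 0 were called. Over all genes, the base blocked fit and that with median centring each called 472 of 20154 in either direction, and quantile normalization again 471. The calls were 463 of 20409 with no filter, 360 of 15424 with the 5 CPM filter and 513 of 20154 with array weights. They were 50 of 20154 without trend and robust estimation and 401 of 19144 without the chromosome of ccdc103. The fit without that chromosome no longer holds the cyp3c genes. In it cyp1a kept its difference of -0.36 and narrowly missed the threshold (blocked limma adjusted p = 0.0512). Leaving out single libraries or clutches gave 0 to 4 lower and 0 to 1 higher, over both models, the highest counts coming from the blocked one. cyp3a65 was called in 10 of 12 blocked settings, cyp3c3 in 9 of 11, cyp2x9 in 8 of 12 and cyp1a in 5 of 12. This tally is no measure of robustness, since median centring and quantile normalization again nearly repeat the base fit (cyp3a65 at -0.62 in each). The calls of cyp3a65 and cyp3c3 were lost without clutch 1 and without trend and robust estimation. That of cyp2x9 was lost in these and without clutch 3 or 4. The blocked alternatives beyond the planned ones were chosen after the data were seen. The median over the P450 genes kept its sign, at -0.13 to -0.06, and was -0.08 over the 53 above the floor. The number that differed between clutches was 32 of 52, beside 7788 of all 20154 tested genes. It was 20 of 52 without trend and robust estimation, beside 2638 of 20154, and the cause was not tested. With the filter on 5 CPM it was 25 of 37, beside 7246 of 15424. Without the chromosome of ccdc103 it was 29 of 49, beside 7422 of 19144. Of 52, it was 25 without clutch 1, 2 or 3 and 33 without clutch 4. Counts over all genes were not computed for these fits. Leaving out 1 library in the model without the block, which leaves its clutch mate unpaired, moved log2 fold changes by over 1.5 times. They ranged from -0.98 to -0.21 for cyp3a65, from -0.998 to -0.33 for cyp3c3 and from -0.69 to -0.028 for cyp1a, and from -0.49 to -0.25 for cyp2x9, which moved less. That of cyp2x8 in the model without the block ranged from -0.78 to 0.047 when single libraries were left out, against -0.38 with all 8. It turned positive without the control of clutch 3, the library highest in this gene. No count of reads was at hand, so low genes such as cyp21a2 and the genes at the floor could not be weighed by depth.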
